A study of Mus musculus with 2 samples.

Results

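The genes described here are 9 regulators and surface genes of the primitive endoderm, Gata6, Gata4, Sox17, Sox7, Foxa2, Pdgfra, Dab2, Cubn and Amn, out of 18888 genes in the table. They were chosen by symbol, with the expression values of the same libraries already known, so that their values are a description and carry no test. Genes of the extracellular matrix were not included. RNA was sequenced from 46C mESCs, a mouse embryonic stem cell line, that carried either the PiggyBac vector alone (PB) or the vector expressing TERRA (PB-TERRA), the polyadenylated form of the telomeric repeat RNA. Both cultures were 46C cells of passages 21 to 24 and were kept on gelatin-coated plates in mouse ESC medium. Each condition was sequenced as 1 library, so no replicate spread can be estimated, no p-value is given, and each difference is one between 2 libraries that has no replicate check.

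The primitive endoderm is the layer that forms beside the epiblast in the inner cell mass of the blastocyst and later gives rise to the visceral and parietal endoderm of the yolk sacs. FGF4 made by epiblast cells acts through FGF receptors and the MAP kinase pathway on neighbouring cells, in which GATA6 and NANOG oppose each other. GATA6 stands near the top of the programme, PDGFRA appears early on the surface of the cells, and GATA4, SOX17 and SOX7 follow. mESC cultures are known to hold a few cells that enter this programme.

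Promoters are shown first for members with entries in the RefSeq promoter table (GRCm38.p6), because GATA factors head the programme and their binding motif can be read in the letters. Each window runs from 250 bases before to 50 bases after an annotated start, in the direction of the gene. The table held 8 windows for 5 members, namely Foxa2, Pdgfra, Dab2, Cubn and Amn. Gata6, Gata4, Sox17 and Sox7 had no entry. The GATA motif was searched as AGATAA or TGATAA on both strands, and matches are in capitals. The Dab2 window lies at chr15:6299539-6299838 (+ strand) and is the one with most matches, 2 of them. The Foxa2 window lies at chr2:148045415-148045714 (- strand), belongs to the third listed start of the gene and holds 1 match. The Pdgfra window lies at chr5:75152001-75152300 (+ strand) and is shown for contrast, as it held 0 matches in front of a gene with a large difference between the libraries.
Dab2: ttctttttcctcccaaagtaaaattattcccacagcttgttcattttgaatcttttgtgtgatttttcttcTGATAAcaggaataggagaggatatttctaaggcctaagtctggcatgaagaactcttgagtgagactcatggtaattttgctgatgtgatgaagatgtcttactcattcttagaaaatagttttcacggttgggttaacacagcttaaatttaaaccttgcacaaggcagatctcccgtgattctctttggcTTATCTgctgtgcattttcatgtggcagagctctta
Foxa2: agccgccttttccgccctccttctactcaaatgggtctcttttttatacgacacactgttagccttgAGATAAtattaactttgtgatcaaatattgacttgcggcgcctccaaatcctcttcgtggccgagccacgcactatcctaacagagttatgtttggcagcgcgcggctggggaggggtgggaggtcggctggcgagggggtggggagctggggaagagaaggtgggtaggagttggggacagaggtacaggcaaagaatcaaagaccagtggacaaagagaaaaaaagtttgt
Pdgfra: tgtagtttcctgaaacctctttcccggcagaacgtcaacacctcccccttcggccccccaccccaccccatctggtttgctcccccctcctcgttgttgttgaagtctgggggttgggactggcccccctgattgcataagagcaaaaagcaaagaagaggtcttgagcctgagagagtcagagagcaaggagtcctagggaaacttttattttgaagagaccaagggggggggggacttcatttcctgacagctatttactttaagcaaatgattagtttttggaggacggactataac

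The GATA motif was present in 2 of the 8 member windows and in 18.6% of all 32851 windows. A SOX-type motif, ACAAAG on either strand, was found in 1 member window, that of Foxa2 shown above, and in 18.7% of all windows. A FOXA-type motif, TGTTTAC on either strand, was found in 0 member windows and in 3.65% of all windows. A missing match says only that these letters are not in the window. The members also differed in base composition. GC content was 37.7% in the Dab2 window shown and 59.3% in a second Dab2 window, 51.0% in Pdgfra, 44.3% in Cubn, 62.3% in Amn and 51.7% to 64.0% in the 3 windows of Foxa2, against a median of 52.7% over all windows. The expression table has 1 value per gene, so reads cannot be assigned to a start site.

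All 9 members were higher in PB-TERRA than in PB. The expression values were read as FPKM, levels scaled to gene length and to the depth of the library, so that levels of different genes can be compared. On the log2 scale the ratio of PB-TERRA to PB, taken after 0.1 was added to each FPKM, ran from 0.17 (Amn) to 1.08 (Foxa2) with a median of 0.33. The added 0.1 FPKM makes the ratios of the lowest genes smaller. As a background, 48.6% of the 12263 genes with at least 1 FPKM in 1 library or both were higher in PB-TERRA. The log2 ratios of these genes centred on a median of -0.0044 and had an SD of 0.31. The members are low in mESCs, between 0.17 and 6.35 FPKM, and ratios of low genes scatter more. Among the 9218 genes with a mean of 0.1 to 10 FPKM, a range that takes in all 9 members, 49.2% were higher in PB-TERRA, with an SD of 0.49. Since the members were chosen with these values known, the shares serve for scale only. In bulk RNA, more cells of a type and more RNA per cell cannot be told apart.

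**Figure D1:**
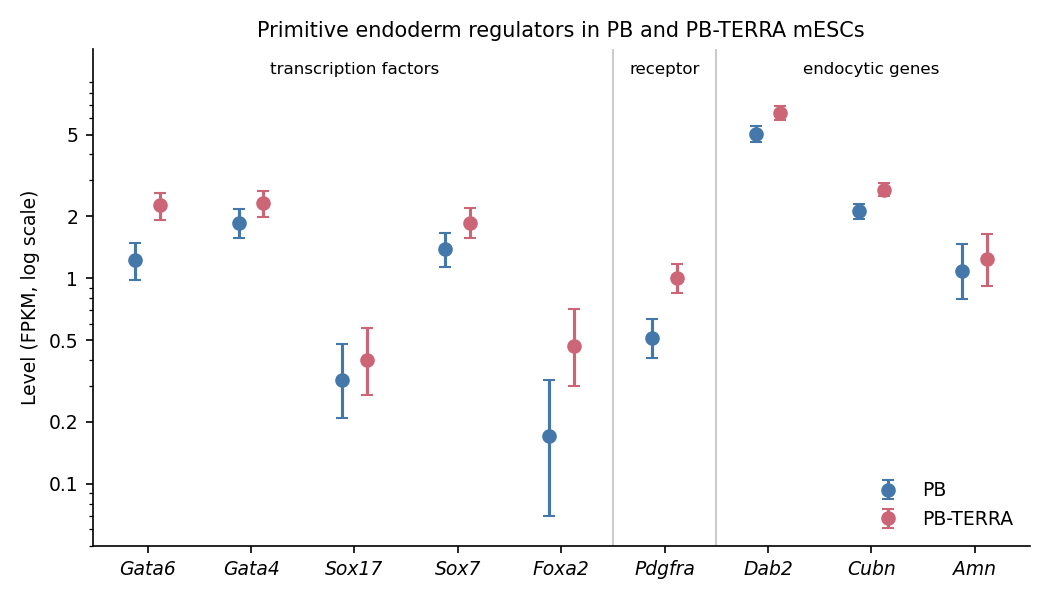
Level of each member in FPKM (log scale) in the PB library and in the PB-TERRA library. Points are single libraries and bars are exact 95% Poisson intervals of the estimated reads, which cover counting error only. The PB-TERRA point lies above the PB point for all 9 genes, and the bars are apart for Gata6, Pdgfra, Dab2 and Cubn.

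Read numbers are not in the table and were estimated from FPKM, gene length and the value of 1 read, which shows as steps in the low values of short genes. The depth was fitted to these steps in each library separately and came to 24.9 in both, in units of 1000000 reads. Summed over the 9 members they were 1624 and 2179 reads. The exact 95% interval of the log2 ratio of the reads lay above 0 for 6 of the 9 members, Gata6, Sox7, Foxa2, Pdgfra, Dab2 and Cubn, and included 0 for the remaining 3, Gata4, Sox17 and Amn. Such an interval lay above 0 for 16.1% of the 14896 genes that had 10 reads or more in either library, and for 11.3% of the 8269 of these with a mean of 0.1 to 10 FPKM. The intervals cover counting error only, and they compare the libraries and not the conditions.

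A log2 ratio of at least 1 in a gene that also reached 1 FPKM in 1 library or both was found for 0 of the 9 members. Upward, 0.44% of the genes past this FPKM filter reached that ratio. Foxa2 had a log2 ratio above 1 (0.33 with 1 FPKM added in place of 0.1) but stayed below 1 FPKM in both libraries, as did Sox17. The other 7 members passed the filter.

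Gata6, the zinc finger factor that initiates the programme, had 1.22 FPKM in PB and 2.26 FPKM in PB-TERRA. Its level was 1.85-fold higher in the PB-TERRA library (95% interval of the reads 1.44 to 2.40-fold), from 95 and 176 reads. The log2 ratio was 0.84, and 0.55 with 1 FPKM added. A ratio of 0.84 was reached or passed by 89 genes past the filter (0.73%) and by 3.2% of the genes with a mean of 0.1 to 10 FPKM. In the GENCODE M21 annotation the long noncoding gene 1010001N08Rik, also known as Gata6os, lies on the opposite strand and shares 93 exon bases with Gata6. It had 0.14 FPKM in PB and 0.65 FPKM in PB-TERRA, from 2 and 10 reads (95% interval of the ratio 1.07 to 46.93-fold). The library kit named in the labels does not mark the strand of the RNA, so reads from the shared bases cannot be told apart, although these bases are a small part of the 3250 of Gata6.

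Gata4, the related factor that is switched on after Gata6, differed less. It had 1.86 FPKM in PB and 2.31 FPKM in PB-TERRA, from 152 and 189 reads. It was 1.24-fold higher in the PB-TERRA library, and the interval of this fold ran from just under no change to 1.55. On the log2 scale the interval of Gata6, 0.52 to 1.27, overlapped that of Gata4, which ended at 0.63. The remaining members of the GATA family were read for comparison. Gata2, a factor of blood and trophoblast cells, had 2.41 and 3.44 FPKM (log2 ratio 0.50, interval of the reads 0.24 to 0.79). Gata3, a trophoblast factor, had 0.32 and 0.52 FPKM from 25 and 41 reads (interval -0.04 to 1.49). Gata1, the factor of red blood cells, had 0.63 and 0.58 FPKM, and Gata5 had 3 and 0 reads. Of these 4 GATA genes outside the primitive endoderm 2 were higher and 2 lower, and only Gata2 had an interval on 1 side of 0. The intervals of the lower genes, Gata1 and Gata5, included 0, so no opposite direction was measured. The GATA cofactors Zfpm1 (2.62 and 2.90 FPKM) and Zfpm2 (1.22 and 1.09 FPKM) had log2 ratios of 0.14 and -0.15, and both intervals included 0.

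Sox17 and Sox7 are HMG-box factors of the same SOX F group and are expressed in the primitive endoderm and in blood vessels. Sox7 had 1.38 FPKM in PB and 1.86 FPKM in PB-TERRA, from 108 and 146 reads, a 1.35-fold difference with an interval of 1.05 to 1.75. Sox17 was among the least expressed members, with 0.32 and 0.40 FPKM from 25 and 31 reads. Its 1.25-fold difference had an interval of 0.71 to 2.19 and was not detectable at this depth. The reference annotation places the noncoding gene Gm37587 on the opposite strand of Sox17 with 804 shared exon bases, and this gene was not analysed here. The third SOX F gene, Sox18, a factor of lymphatic and blood vessels, had 1.23 and 1.33 FPKM (interval of the log2 ratio -0.49 to 0.73).

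Foxa2, a forkhead factor of visceral endoderm and of definitive endoderm, was the lowest member in PB. It had 0.17 FPKM in PB and 0.47 FPKM in PB-TERRA, which rests on 8 and 23 reads. The fold of 2.76 was the largest among the members, but its interval of 1.24 to 7.43 was also the widest. Its relatives were low as well. Foxa3 had 0.59 and 0.96 FPKM from 28 and 46 reads (interval of the log2 ratio 0.01 to 1.45), and Foxa1 had 0.18 and 0.23 FPKM from 14 and 18 reads (interval -0.73 to 1.48). All 3 genes of the SOX F and FOXA families outside the members were higher in PB-TERRA, 1 of them with an interval above 0. Summed over the 5 transcription factors among the members, 388 reads came from PB and 565 from PB-TERRA, which is a log2 ratio of 0.54. This sum is a description of chosen genes, and taken alone Gata4 and Sox17 had intervals that included 0.

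Pdgfra encodes the alpha receptor for platelet-derived growth factors and serves as a surface marker of primitive endoderm cells. With 82 reads in PB and 160 in PB-TERRA, its level was 0.51 and 1 FPKM, so that the PB-TERRA library had 1.96-fold more (interval 1.49 to 2.58). The log2 ratio was 0.85, and 0.41 with 1 FPKM added in place of 0.1. Pdgfra passed the filter of 1 FPKM only through the PB-TERRA library, in which it was higher. Of the genes with a mean of 0.1 to 10 FPKM, 3.0% had a log2 ratio of 0.85 or more. The annotation lists 2 further genes on the opposite strand of Pdgfra, Gm42802 and Gm42803, which share 456 and 166 of its exon bases and were not analysed here.
Of the ligands, Pdgfa, which acts through this receptor, had 23.64 and 24.21 FPKM (log2 ratio 0.03, interval of the reads -0.14 to 0.21). Pdgfc, also a ligand of the alpha receptor, had 5.19 and 6.50 FPKM and was higher in PB-TERRA (0.32, interval 0.14 to 0.51). Pdgfb, which binds both receptors, had 6.97 and 5.45 FPKM and was lower (-0.35, interval -0.55 to -0.16). Pdgfd had 3 and 2 reads. The beta receptor Pdgfrb had 0.94 and 1.05 FPKM, with an interval of the log2 ratio from -0.21 to 0.52. The ligands thus lay on both sides of 0.

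Pdgfra is also expressed by fibroblasts, whose genes were read beside it. Of 11 listed fibroblast genes 10 were in the table, 6 higher and 4 lower in PB-TERRA, with a median log2 ratio of 0.16. The interval of the reads lay above 0 for 4 of them, Col1a1, Col1a2, Col3a1 and Acta2, and included 0 for the other 6. The summed level of the list was 29.26 FPKM in PB and 36.58 FPKM in PB-TERRA. Thy1 and the collagen gene Col1a1 were among the highest, with 9.16 and 8.39 FPKM for Thy1 and 7.99 and 12.14 FPKM for Col1a1 (log2 ratio 0.60, interval of the reads 0.50 to 0.71). Acta2, the smooth muscle actin gene, had 9.03 and 12.38 FPKM, and Col1a2 had 0.92 and 1.37 FPKM. Col3a1, a further collagen gene, had the largest difference of the list, with 0.21 and 0.47 FPKM from 28 and 64 reads (2.24-fold, interval of the log2 ratio 0.53 to 1.89). The matrix genes Dcn (17 and 16 reads), Lum (3 and 2 reads) and Postn (5 and 6 reads) and the calcium-binding protein gene S100a4 (5 and 3 reads) were low in both libraries, and their intervals included 0. The part of such cells in the Pdgfra difference was not tested.

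**Figure D2:**
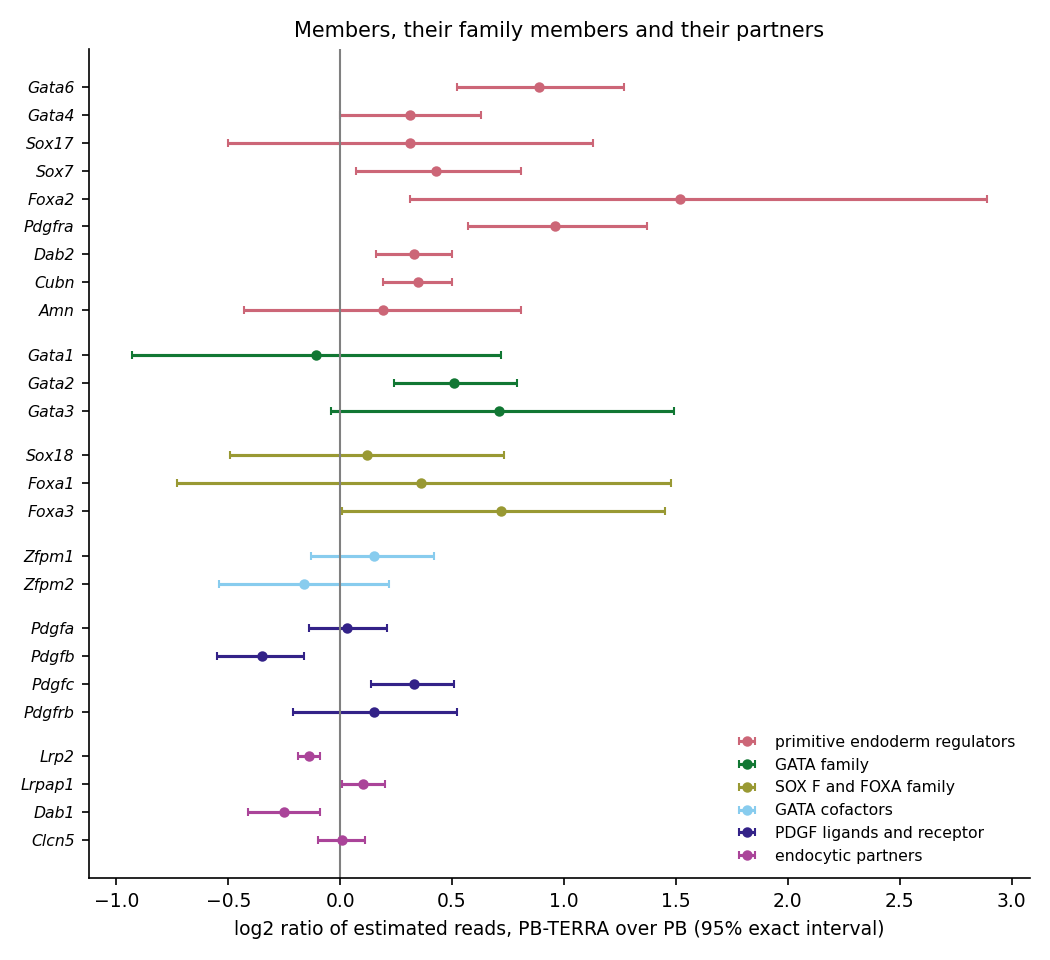
Log2 ratio of the estimated reads, PB-TERRA over PB, for the 9 members, and for genes of their families and partner genes named in the text with at least 10 reads. Points are ratios of single libraries and bars are exact 95% intervals. The intervals of Gata6 and Pdgfra start above 0.5, and of the family and partner genes Gata2, Foxa3, Pdgfc and Lrpap1 have intervals above 0 and Pdgfb, Lrp2 and Dab1 below 0.

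Dab2, Cubn and Amn work together in endocytosis. Cubilin, the product of Cubn, is a large receptor without a membrane anchor of its own, amnionless (Amn) anchors it, and the adaptor DAB2 links such receptors to clathrin. Dab2 was the highest member, with 5.04 FPKM in PB and 6.35 FPKM in PB-TERRA, from 519 and 653 reads. It was 1.26-fold higher in the PB-TERRA library, with an interval of 1.12 to 1.41. Cubn had 2.12 and 2.69 FPKM, and its long transcript of 11339 bases gave 592 and 752 reads. Its fold of 1.27 (interval 1.14 to 1.42) was nearly that of Dab2. Amn had 1.09 and 1.24 FPKM from 43 and 49 reads. The fold of 1.14 was the smallest of all members, and its interval of 0.74 to 1.76 included no change. Summed over these 3 genes, 1154 reads came from PB and 1454 from PB-TERRA, giving a log2 ratio of 0.33. Most of these reads came from Dab2 and Cubn, so the sum says little about Amn.
The partners of this endocytic group did not share the direction. Lrp2 encodes megalin, the membrane receptor that takes up ligands together with cubilin, and was slightly lower, with 15.55 and 14.10 FPKM (interval of the log2 ratio of the reads -0.19 to -0.09). Lrpap1, its chaperone, had 24.92 and 26.75 FPKM (0.10, interval 0.01 to 0.20). Dab1, the neuronal relative of Dab2, had 6.81 and 5.72 FPKM (-0.25, interval -0.41 to -0.09). The interval of the endosomal chloride transporter gene Clcn5 (6.79 and 6.82 FPKM) included 0. Of the 5 partners in the table, 3 were higher and 2 lower, with a median log2 ratio of 0.01, and with upper-quartile scaling or the length shift taken off 2 were higher. The annotation places the pseudogene Gm18888 opposite to Dab2 (211 shared exon bases) and the noncoding gene Gm13270 opposite to Cubn (368 shared exon bases), and neither was analysed here.

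The order of the members by level was nearly the same in both libraries. In PB it ran Dab2, Cubn, Gata4, Sox7, Gata6, Amn, Pdgfra, Sox17 and Foxa2. In PB-TERRA Gata6 stood before Sox7, and Foxa2 before Sox17. Of neighbours in the PB order, the 95% Poisson intervals were apart only between Dab2 and Cubn and between Amn and Pdgfra. In PB-TERRA they were apart only between Dab2 and Cubn and between Pdgfra and Foxa2. The positions in which the libraries differ are therefore within counting error.

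The differences themselves were uneven. Gata6 and Pdgfra, with log2 ratios of the reads of 0.89 and 0.96, had intervals that did not overlap those of Dab2 (0.16 to 0.50) and Cubn (0.19 to 0.50). For the other 32 of the 36 pairs of members the intervals overlapped. Genes of the same length as the members centred near 0. Their median log2 ratio lay between -0.05 for Amn and 0.08 for Cubn. With it taken off, the log2 ratio was 0.25 for Cubn, 0.83 for Gata6 and 0.80 for Pdgfra, and all 9 members were still higher in PB-TERRA.

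**Figure D3:**
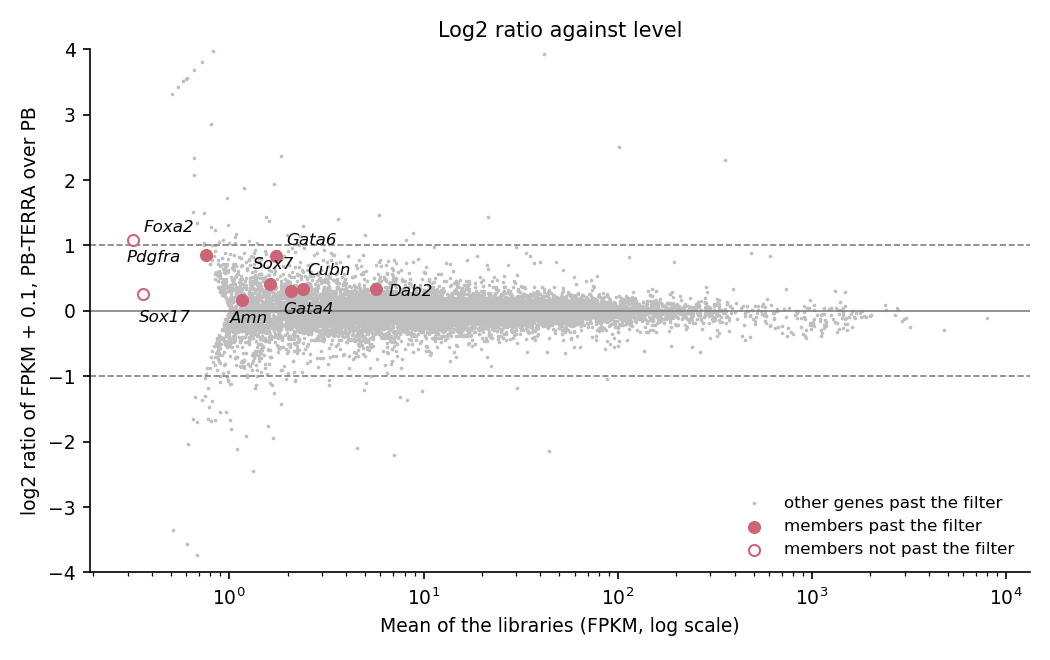
Log2 ratio of FPKM + 0.1, PB-TERRA over PB, against the mean FPKM of the libraries (log scale) for genes past the filter of 1 FPKM, with the members in colour. Open circles are Foxa2 and Sox17, which did not pass the filter, dashed lines mark a log2 ratio of 1 in either direction, and 10 genes lie beyond the axis. All 9 members lie above 0, and the ratios of other genes scatter more at low levels.

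The signal that acts above Gata6 was read from 10 genes of the FGF and MAP kinase pathway, each of which passed the filter. The PB-TERRA library had 5 of them higher and 5 lower, and the median log2 ratio was 0.00. Fgf4, the ligand, had 31.89 FPKM in PB and 37.13 FPKM in PB-TERRA, the largest log2 ratio of the list (0.22, interval of the reads 0.14 to 0.30). The receptor genes Fgfr1 (30.83 and 28.46 FPKM) and Fgfr2 (4.72 and 4.52 FPKM) had log2 ratios of -0.12 and -0.06, and the interval of Fgfr2 included 0. Of the kinase genes, Map2k1 was lowest at -0.18 (47.11 and 41.71 FPKM), followed by Mapk3 at -0.15 (58.83 and 53.01 FPKM) and Map2k2 at -0.10 (39.81 and 37.19 FPKM). Nanog, which opposes Gata6, had 186.41 and 173.37 FPKM (log2 ratio -0.10, interval -0.15 to -0.06). This difference is small beside the SD of 0.31 of the genes past the filter. An interval below 0 was found for 15.4% of the 14896 genes with 10 reads or more in either library.

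The label of the group was checked against genes of the layers that the primitive endoderm forms. Of 22 listed visceral endoderm genes 21 were in the table, 10 higher, 10 lower and the remaining gene equal. The interval of the reads lay above 0 for 2 of them and below 0 for 2, and included 0 for 17. Afp and the apolipoprotein genes Apoa1 and Apoa4, which mark mature visceral endoderm, were near 0 in both libraries, with 2 and 1 reads for Afp, 2 and 1 for Apoa1 and 1 and 0 for Apoa4. Other genes of the mature layer were measured, Trf, the transferrin gene, with 188 and 253 reads (interval of the log2 ratio 0.15 to 0.71) and Apob with 110 and 114 reads (interval -0.34 to 0.44). Past the filter 5 were higher and 5 lower, with a median log2 ratio of 0.03. Dpp4, a peptidase of the cell surface, had the largest ratio (1.24 and 1.96 FPKM, log2 ratio 0.62, interval of the reads 0.36 to 0.96), and the zinc transporter gene Slc39a8 had the smallest (2.65 and 2.22 FPKM, -0.25). The most abundant gene, Apoe, had 246.27 and 237.10 FPKM, followed by Cldn6 with 104.62 and 88.53 FPKM, Cited1 with 7.77 and 7.74 FPKM and Spink1 with 4.59 and 4.31 FPKM. Hnf4a, a factor of the visceral endoderm, had 50 and 48 reads and an interval that included 0. The early regulators were thus measured at up to a few FPKM, while Afp, Apoa1 and Apoa4 had at most 2 reads.

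Of 10 parietal endoderm genes, 8 passed the filter, 6 of them higher and 2 lower, with a median log2 ratio of 0.06. Plat, the gene of tissue plasminogen activator, had 0.77 and 1.21 FPKM (0.59, interval of the reads 0.11 to 1.21), whereas Pth1r, a receptor gene of parietal endoderm, had 3.47 and 2.55 FPKM (-0.43, interval -0.78 to -0.11). The most abundant genes of this list were Vim (102.81 and 105.57 FPKM), Krt19 (53.46 and 42.12 FPKM), Tfpi (22.53 and 22.65 FPKM) and Srgn (5.39 and 5.99 FPKM). Thbd, the thrombomodulin gene, had 23 and 14 reads. Of the genes of definitive endoderm and the organizer 11 were in the table, 6 higher and 5 lower with a median of 0.10. The 5 past the filter, 2 higher and 3 lower, had a median of the opposite sign, -0.19. Nodal had 31.22 and 33.42 FPKM. Past the filter Hhex had the largest ratio of this list at 0.15 and Otx2 the smallest at -0.33, while Kit and Eomes had -0.19 and -0.27. No gene of either list reached a log2 ratio of 1 past the filter.

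Genes of the other lineages were on both sides of 0. Of the mesoderm genes past the filter 4 were higher and 2 lower (median 0.16), with Hand1 highest at 0.91 (1.36 and 2.65 FPKM) and T lowest at -0.12, beside Tcf15 (-0.06) and Twist1 (0.12). Of the trophectoderm genes past the filter 6 were higher and 3 lower (median 0.14). Hand1, which also stands in this list, was followed by Esx1 at 0.84 and Cdx2 at 0.79, and Eomes was lowest, with Tfap2c at -0.24, Tead4 at -0.05 and Krt7 at 0.14. Of the neural genes 2 were higher, Sox3 at 0.55 and Sox1 at 0.52, and 2 lower, Tubb3 at -0.16 and Nes at -0.38. All 16 pluripotency genes passed the filter, 12 higher and 4 lower with a median of 0.11, from Prdm14 at -0.36 to Tbx3 at 0.64. Pou5f1 had 744.67 and 773.31 FPKM, Zfp42 189.98 and 188.41 FPKM and Klf5 154.17 and 175.02 FPKM, far above the members. The fibroblast median was 0.45 over 5 genes past the filter, from Thy1 at -0.13 to Col1a1, 4 of them higher, against 0.16 over all 10 in the table. Over all genes in the table the median was 0.19 for mesoderm, 0.14 for trophectoderm, 0.00 for neural genes, where it was 0.18 past the filter, 0.02 for parietal and 0.00 for visceral endoderm. These lists have from 4 to 16 genes past the filter, and several hold low genes whose ratios scatter as those of the members do. Nothing is therefore read from the differences between their medians. The read intervals of Hand1 (0.52 to 1.45), Esx1 (0.41 to 1.39) and Cdx2 (0.38 to 1.33) lay above 0. Their ratios were near those of Gata6 and Pdgfra, so differences of this size were not particular to the members. Read intervals lay above 0 for 3 trophectoderm genes and below 0 for 2. For mesoderm the numbers were 2 and 0, and for neural genes 2 and 2.

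**Figure D4:**
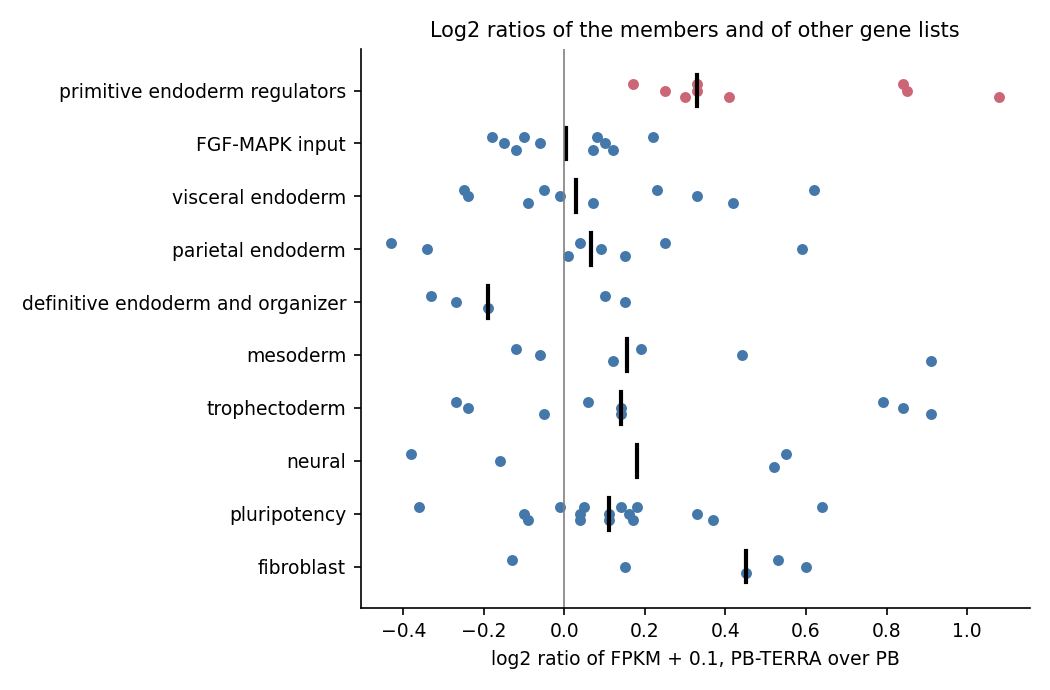
Log2 ratio of FPKM + 0.1, PB-TERRA over PB, of each member and of each gene past the filter in 9 comparison lists. Points are genes, Hand1 and Eomes stand in more than 1 list, and black bars are medians. The 9 members lie between 0.17 and 1.08, while all lists hold genes on both sides of 0.

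The table also carries GO terms that the choice of members did not use. The molecular function of sequence-specific RNA polymerase II transcription factor activity was listed for all 5 transcription factors among the members, and for 82 genes in all. The process of forming a primary germ layer was listed for Gata4, Sox7 and Foxa2. Among 13 further genes with this term and at least 1 FPKM, 9 were higher and 4 lower, at a median of 0.04. A process term with the word endoderm was carried by 21 genes, of which 3 are members. Of the other 18, 15 passed the filter, 8 higher and 7 lower, with a median of 0.02. The largest ratio among them belonged to Hmga2, a chromatin gene, at 0.39 (9.11 and 11.95 FPKM).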

How the data were processed

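The authors sequenced 1 library from PB mESCs and 1 from PB-TERRA mESCs and deposited 1 table of 18888 genes. Its expression values are taken as FPKM, which the authors had scaled to the length of each gene and to mapped fragments. The header names no unit, and the values have 2 decimals and a lowest value of 0.01. The submitters' processing notes name HISAT, Cufflinks and mm9, and the annotation is not given in the sources used here. The deposited fold change, p-value and adjusted p-value of the authors' own comparison were not used. The number of unused per-sample columns was 0.

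The log2 ratio of FPKM + 0.1 was computed, with a filter of 1 FPKM in 1 library or both and a threshold of 1. Reads were estimated as the product of FPKM, the gene length less 115 bases (in kilobases) and 24.9, the depth of either library in units of 1000000 reads. These values, found by a search over a grid, made most low values of short genes whole (73.1% of 553 in PB and 78.0% of 601 in PB-TERRA, within rounding and 0.02 reads, against 17.0% by chance). Why 115 bases have to come off the length is not known. Values of 0.01 counted as 0 reads, which allows up to 3 reads. Intervals are exact (Clopper-Pearson for ratios, Poisson for levels), at 95%, and cover counting error only. The shift of like length is the median log2 ratio in 50 length bins.

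No test was made, because each group has 1 library. The members and lists were chosen with earlier results of these data known. All 9 members are named, with the genes of the family and partner lists in the table. From each other list the text names up to 4 genes of highest mean FPKM and the largest and smallest log2 ratio past the filter. Other genes were named after their values were seen. Single values of a few genes counted in these lists are not reported here. Of the listed symbols 5 were not matched to a row, among them Cblif, Ttr, Cer1 and Fap. Promoters come from RefSeq (GRCm38.p6), and overlaps from GENCODE M21, which need not be the authors' annotation. Alternatives were the pseudocount, the filter, the scaling, the length correction and the interval. The computations were tested on simulated data. Scripts ran in Python 3.11.15 with scipy 1.17.1, numpy 2.4.6 and pandas 2.3.3, and plots were drawn with matplotlib 3.10.9.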

Additional observations from a re-analysis of the deposited data

How the results depend on the processing

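All 9 members were higher in PB-TERRA with 0.01 or 1 FPKM added, after median centring, median-of-ratios or upper-quartile scaling, and with the length shift taken off, and the median log2 ratio stayed between 0.27 and 0.34. Adding 1 FPKM lowered the log2 ratios of 6 members by over 1.5 times, Foxa2 from 1.08 to 0.33, Pdgfra from 0.85 to 0.41, Gata6 from 0.84 to 0.55, Sox7 from 0.41 to 0.27, Sox17 from 0.25 to 0.08 and Amn from 0.17 to 0.10. With 0.01 FPKM added Foxa2 was at 1.42. Among the members, 1.5 times was passed under no other of these settings. Scaling moved the median of the genes past the filter by less than 0.1. Up or down, 112 genes past the filter reached a log2 ratio of 1. The number was 45 with 1 FPKM added, 513 with no filter and 17 with a mean of at least 5 FPKM. With no filter, 1 member, Foxa2, reached that ratio. A median log2 ratio above 0 was found for 12 of the 14 lists, and for 6 with a mean of at least 5 FPKM, a setting that leaves fewer genes. Under the scalings, the length correction and the pseudocounts this number ran from 10 to 13, since several medians lie near 0. The read interval lay above 0 for 6 members, for 4 at 99% (Gata6, Pdgfra, Dab2 and Cubn), for 7 with the full gene length, which adds Gata4, and for 6 when set against the length shift. No paired analysis was possible because each group has 1 library, and for the same reason no library could be left out. Depth limits Sox17, Foxa2 and Amn most, with 8 to 49 reads each.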
